A study of Homo sapiens with 10 samples.

Results

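The acyl-CoA synthetases ACSL1, ACSL3, ACSL4 and ACSL5, with LPCAT3, ALOX5, POR, CYB5R1, PLA2G6 and PTGS2, form a set of 10 genes. Their products activate fatty acids or put them into membrane lipids, help to oxidise fatty acids, or cut them out again. All 10 genes were followed across 10 RNA-seq libraries of human pancreatic cancer cells. The genes were chosen by name for their known part in ferroptosis, with earlier results of these data known. Each had 1 row in the deposited expression table, so they were 10 of 20289 genes. All 10 passed the filter on low values, at least 1 FPKM in at least 2 libraries, as did 13077 genes in all. FPKM scales a gene's fragments to its length and to the library, so that levels of different genes can be set side by side.

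Ferroptosis is an iron-dependent death in which polyunsaturated acyl chains of membrane phospholipids are oxidised faster than they are repaired. Long-chain acyl-CoA synthetases, the ACSL enzymes, activate free fatty acids, and LPCAT3 then esterifies them into phospholipids. ACSL4 prefers arachidonic and adrenic acid, whereas ACSL3 is known for activating monounsaturated fatty acids, which oxidise poorly. Lipoxygenases such as ALOX5 add oxygen to these chains by catalysis, and the flavoprotein reductases POR and CYB5R1 can feed electrons into reactions that start lipid peroxidation without a lipoxygenase. PLA2G6 is a phospholipase A2 that can release acyl chains, oxidised ones included, and PTGS2 encodes cyclooxygenase-2, whose mRNA is often read as a marker of ferroptosis.

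The series asked for regulators of ferroptosis in pancreatic ductal adenocarcinoma. CFPAC-1, an established line from a liver metastasis, was given 10 µM imidazole ketone erastin (IKE) for 24 h, and PANC-1, a line from a primary tumour, was given 1 µM for 24 h. IKE is an erastin derivative that blocks system xc-, the cystine-glutamate exchanger, and so deprives cells of cystine. Control cells of each line had 0.1% DMSO, the solvent, for the same 24 h. The groups were CFPAC-1 with DMSO (n = 2), CFPAC-1 with IKE (n = 2), PANC-1 with DMSO (n = 2) and PANC-1 with IKE (n = 4). Only cells left after dead cells and debris had been taken away were sequenced, and a change inside cells cannot be told apart from a change in the mix of survivors. The same holds for fewer cells of a kind and less RNA per cell. Each line is 1 tumour, the dose differed between the lines, and the labels name 2 culture media without saying which line had which.

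Each library had 11604 to 12248 genes at 1 FPKM or more. Markers of ductal epithelial carcinoma cells reached 1 FPKM in 7 of 7 cases and markers of mesenchymal-like carcinoma cells in 4 of 4, and of these 11 genes the 1 that passed the test with IKE was FN1, in CFPAC-1 (log2 difference 0.52, adjusted p = 0.0488, limma). As a reading of the treatment, SLC7A11, the cystine-carrying subunit of the IKE target, went from 5.48 ± 0.283 (SD, n = 2) to 12.8 ± 2.92 FPKM (SD, n = 4) in PANC-1 (log2 difference 1.07, adjusted p = 0.00538, limma). In CFPAC-1 it had 40.0 ± 0.728 FPKM with DMSO and 69.4 ± 0.948 FPKM with IKE (SD, n = 2 each), which missed the threshold (log2 difference 0.78, adjusted p = 0.0593, limma). CHAC1, a stress gene that degrades glutathione, rose in CFPAC-1 (log2 difference 1.86, adjusted p = 1.36e-04, limma), and was not called in PANC-1 (0.38, adjusted p = 0.198, limma). The haem oxygenase gene HMOX1 rose in PANC-1 (log2 difference 2.67, adjusted p = 8.20e-04, limma) and was not called in CFPAC-1 (0.51, adjusted p = 0.532, limma).

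The promoters shown here belong to the genes on which the results turn: ACSL4, the gene most tied to ferroptosis, ACSL1, which was called with IKE in CFPAC-1, and ACSL5 and PTGS2, which were far lower in PANC-1 than in CFPAC-1. Each run is the 250 bases before the first listed start of the gene in RefSeq (GRCh38.p14). It is written on the strand of the gene and 5′ to 3′, with every CG dinucleotide in capitals. By the GENCODE 29 gene positions given below, the ACSL1 and ACSL5 runs lie inside the gene. The ACSL4 and PTGS2 runs lie partly inside, that of PTGS2 only by its last few bases. Which start these cells use was not tested. The stretches are chrX:109733258-109733507 (minus strand) for ACSL4, chr4:184825969-184826218 (minus strand) for ACSL1, chr10:112375018-112375267 (plus strand) for ACSL5 and chr1:186680424-186680673 (minus strand) for PTGS2.
ACSL4: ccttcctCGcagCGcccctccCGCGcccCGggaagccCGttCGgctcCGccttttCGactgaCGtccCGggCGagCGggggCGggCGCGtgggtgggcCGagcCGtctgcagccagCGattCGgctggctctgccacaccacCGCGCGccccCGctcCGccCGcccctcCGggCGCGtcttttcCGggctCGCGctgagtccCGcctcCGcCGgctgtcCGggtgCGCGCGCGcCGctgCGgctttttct
ACSL1: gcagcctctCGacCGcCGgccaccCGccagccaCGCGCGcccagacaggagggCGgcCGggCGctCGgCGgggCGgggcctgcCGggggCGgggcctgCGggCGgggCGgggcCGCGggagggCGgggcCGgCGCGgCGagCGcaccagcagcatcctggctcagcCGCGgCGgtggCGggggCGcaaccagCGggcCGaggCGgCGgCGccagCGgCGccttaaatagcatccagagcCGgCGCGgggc
ACSL5: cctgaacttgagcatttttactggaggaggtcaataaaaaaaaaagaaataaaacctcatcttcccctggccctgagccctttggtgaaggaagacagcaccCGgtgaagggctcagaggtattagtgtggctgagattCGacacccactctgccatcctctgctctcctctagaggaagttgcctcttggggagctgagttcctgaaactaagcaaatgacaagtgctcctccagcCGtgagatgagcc
PTGS2: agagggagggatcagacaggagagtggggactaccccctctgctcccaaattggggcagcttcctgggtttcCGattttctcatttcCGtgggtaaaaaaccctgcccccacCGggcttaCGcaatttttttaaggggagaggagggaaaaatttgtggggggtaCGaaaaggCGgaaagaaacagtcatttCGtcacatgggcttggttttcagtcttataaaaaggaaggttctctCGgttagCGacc

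The promoters of ACSL4 and ACSL1 were dense in CG dinucleotides, with 42 and 41, that of ACSL5 had 3, and that of PTGS2 had 9, near the middle of all promoters. Over 35116 promoter windows of this length the median was 11, with quartiles of 3 and 23. In all, 7 of the 10 genes had a promoter in the RefSeq table, with 12 starts between them. ACSL3 had 35 CG dinucleotides, LPCAT3 had 24 and PLA2G6 had 22, whereas a second start of ACSL5 had 2 and the 4 other starts of ACSL1 had 4 to 6.

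Short motifs were searched on both strands, and a match is only a run of letters. TATAAA, the TATA box, was found in the PTGS2 promoter, its first base at -32 from the start, and in 10.7% of all windows. CCAAT was found in PTGS2 at -201, in ACSL3 at -75 and in the third start of ACSL1 at -215. It was found 3 times each in LPCAT3 and PLA2G6, against 32.0% of all windows with at least 1. TGACNNNGC, the core of the antioxidant response element, was found in the third start of ACSL1 at -236 and in the second start of ACSL5 at -154 (10.9% of all windows). TGACTCA, the AP-1 site, was found in the fifth start of ACSL1 at -47 (4.2% of all windows). TGATGNAA, the amino acid response element (3.14%), and TGACGTCA, the cyclic AMP response element (1.65%), were in none of the 12 windows.

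ACSL4 (ENSG00000068366, chromosome X, 109624244 to 109733403, GRCh38 with GENCODE 29) was abundant in both lines and differed little with IKE. In CFPAC-1 it had 78.62 and 82.88 FPKM with DMSO, and 84.07 and 80.24 FPKM with IKE. In PANC-1 it had 35.40 and 35.33 FPKM with DMSO, and 34.54, 33.17, 33.15 and 35.44 FPKM with IKE. The IKE and DMSO libraries overlapped in both lines, while all CFPAC-1 libraries lay above all PANC-1 libraries. The log2 difference with IKE was 0.02 in CFPAC-1 (95% interval -0.12 to 0.17, adjusted p = 0.932, limma on log2(FPKM + 1)). In PANC-1 it was -0.05 (95% interval -0.18 to 0.07, adjusted p = 0.696, limma). With DMSO alone, ACSL4 was lower in PANC-1 by a log2 difference of -1.17 (95% interval -1.31 to -1.02, adjusted p = 1.38e-08, limma).

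ACSL3 (ENSG00000123983, chromosome 2, 222860934 to 222944639) stood above ACSL4 in every library. Its levels in CFPAC-1 were 121.14 and 116.13 FPKM with DMSO and 115.08 and 111.50 FPKM with IKE. Its levels in PANC-1 were 45.58 and 39.89 FPKM with DMSO and 36.47, 37.51, 36.83 and 36.69 FPKM with IKE. In both lines every IKE library lay below every DMSO library, by a small step. Neither step passed the test: the log2 difference was -0.07 in CFPAC-1 (95% interval -0.22 to 0.09, adjusted p = 0.765, limma) and -0.20 in PANC-1 (95% interval -0.34 to -0.07, adjusted p = 0.11, limma). Without PANC-1 DMSO replicate 1, the higher of its pair, the PANC-1 value was -0.11. Between the lines ACSL3 was lower in PANC-1 by a log2 difference of -1.45 (adjusted p = 4.08e-09, limma).

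ACSL1 (ENSG00000151726, chromosome 4, 184755595 to 184826818), which activates a broad range of long-chain fatty acids, was the 1 gene of the 10 called with IKE. It had 7.61 and 8.05 FPKM in CFPAC-1 with DMSO, and 11.21 and 11.88 FPKM with IKE. The PANC-1 levels were 6.97 and 7.27 FPKM with DMSO, and 8.36, 7.68, 7.03 and 8.01 FPKM with IKE. Both CFPAC-1 IKE libraries lay above all other libraries of the series, whereas the PANC-1 groups overlapped. The rise in CFPAC-1, from 7.83 ± 0.311 to 11.5 ± 0.474 FPKM (SD, n = 2 each), was a log2 difference of 0.51 (SE 0.10, 95% interval 0.29 to 0.72, adjusted p = 0.0298, limma). The call rested on few libraries. It was lost without CFPAC-1 DMSO replicate 1 (adjusted p = 0.183) or 2 (0.123), CFPAC-1 IKE replicate 1 (0.122) or 2 (0.219) and PANC-1 DMSO replicate 1 (0.0507) or 2 (0.051, limma throughout), while the log2 difference stayed between 0.47 and 0.55. In PANC-1 the log2 difference was 0.11 (95% interval -0.08 to 0.30, adjusted p = 0.562, limma). The difference of the IKE change between the lines was -0.40 (95% interval -0.68 to -0.11, adjusted p = 0.25, limma), so a line-dependent change of ACSL1 was not established. Between the lines with DMSO it had a log2 difference of -0.12 (adjusted p = 0.278, limma), which became -0.24 (adjusted p = 0.0377, limma) under median-ratio scaling of FPKM.

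ACSL5 (ENSG00000197142, chromosome 10, 112374018 to 112428380), a synthetase known from intestinal and other epithelia, was the most abundant of the 10 genes in CFPAC-1 and barely above 1 FPKM in PANC-1. It had 155.66 and 153.29 FPKM in CFPAC-1 with DMSO and 172.61 and 163.25 FPKM with IKE. In PANC-1 it had 2.09 and 1.61 FPKM with DMSO and 2.16, 1.89, 1.40 and 1.91 FPKM with IKE. The CFPAC-1 groups did not overlap, with IKE higher, and the PANC-1 groups did. The log2 difference with IKE was 0.12 in CFPAC-1 (95% interval -0.16 to 0.40, adjusted p = 0.762, limma) and -0.01 in PANC-1 (95% interval -0.25 to 0.23, adjusted p = 0.989, limma). The line difference, -5.77 on the scale of log2(FPKM + 1) (95% interval -6.05 to -5.50, adjusted p = 5.61e-12, limma), was the largest of the 10 genes on that scale. The added 1 shrinks the differences of PTGS2 and ALOX5 more, since both were lower than ACSL5 in PANC-1. The order is therefore not one of plain FPKM ratios. ACSL5 shares exon sequence on the opposite strand with ZDHHC6, which had 21.62 to 27.66 FPKM over the 10 libraries, far above the ACSL5 level in PANC-1 and below that in CFPAC-1. The use of strand in counting is unknown, and the part of ZDHHC6 reads in the ACSL5 value was not tested.

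**Figure D1:**
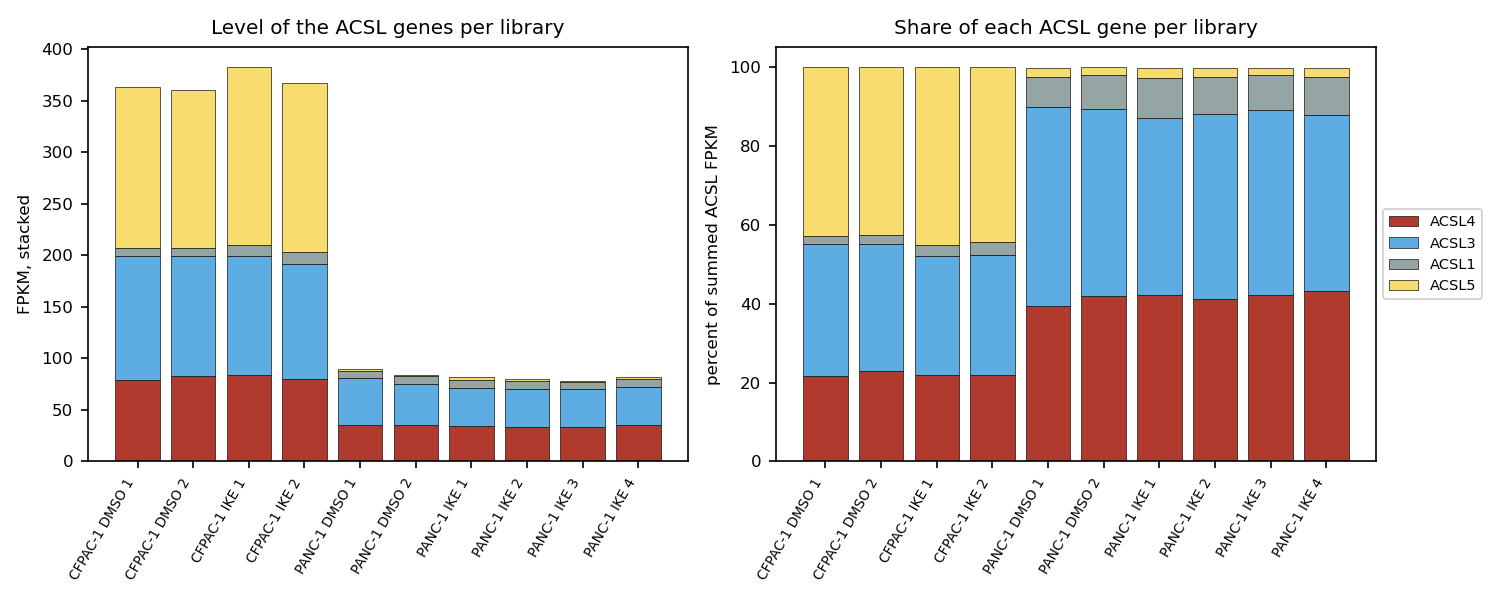
Levels of ACSL4, ACSL3, ACSL1 and ACSL5 stacked per library in FPKM (left) and as a percent of the summed FPKM of the 5 ACSL genes (right, ACSL6 being too low to draw). Each bar is 1 library, and the yellow ACSL5 block, 42.5% to 45.1% of the sum in CFPAC-1, is reduced to 1.78% to 2.65% in PANC-1.

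Because FPKM is scaled to length, the ACSL levels could be summed within a library to show the makeup of the family. The sum over ACSL1, ACSL3, ACSL4, ACSL5 and ACSL6 ran from 360.0 to 383.0 FPKM in CFPAC-1 and from 78.5 to 90.2 FPKM in PANC-1. ACSL6 was at most 0.15 FPKM in any library. The share of ACSL4 was 21.7% and 23.0% in CFPAC-1 with DMSO, and 22.0% and 21.9% with IKE. In PANC-1 it was 39.3% and 42.0% with DMSO, and 42.3%, 41.3%, 42.2% and 43.1% with IKE. ACSL4 thus had the lower level but the larger share in PANC-1, in all 6 libraries against all 4, as the stacked bars of the ACSL genes show. With DMSO the share was 22.3% ± 0.949 in CFPAC-1 and 40.6% ± 1.94 in PANC-1 (SD, n = 2 each), a difference of 18.3 percentage points (exact two-sided permutation p = 0.333, the smallest that 2 against 2 libraries allow). With IKE the mean share differed from DMSO by -0.416 points in CFPAC-1 (exact permutation p = 1.0, smallest possible 0.333) and by 1.61 points in PANC-1 (exact permutation p = 0.133, smallest possible 0.0667). The CFPAC-1 value was 0.255 points without DMSO replicate 2, and 1.53 points as a share of ACSL3 and ACSL4 alone, so its sign rested on 1 library and on the sum used. The level of ACSL4 relative to ACSL3 was 0.649 to 0.731 in CFPAC-1 and 0.777 to 0.966 in PANC-1. As a share of ACSL3 and ACSL4 alone, ACSL4 had 40.5% ± 1.62 in CFPAC-1 and 45.3% ± 2.3 in PANC-1 with DMSO (SD, n = 2 each). That line difference was 4.84 percentage points (exact permutation p = 0.333, smallest possible 0.333), so its size depended on the sum used.

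LPCAT3 (ENSG00000111684, chromosome 12, 6976186 to 7018510) was one of the genes that were higher in PANC-1. It had 16.30 and 15.13 FPKM in CFPAC-1 with DMSO and 16.46 and 14.66 FPKM with IKE. PANC-1 had 22.91 and 21.51 FPKM with DMSO and 19.75, 23.45, 25.14 and 19.96 FPKM with IKE. The IKE libraries lay on both sides of the DMSO libraries in each line. The log2 difference with IKE was -0.01 in CFPAC-1 (95% interval -0.27 to 0.24, adjusted p = 0.982, limma) and -0.01 in PANC-1 (95% interval -0.24 to 0.21, adjusted p = 0.967, limma). Between the lines it was 0.47 (95% interval 0.22 to 0.73, adjusted p = 0.00298, limma). LPCAT3 shares exon sequence on the opposite strand with EMG1, which was also higher in PANC-1 (18.4 ± 0.12 against 10.0 ± 0.332 FPKM with DMSO, SD, n = 2 each). The use of strand in counting is unknown, and the part of EMG1 reads in the LPCAT3 value was not tested.

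PLA2G6 (ENSG00000184381, chromosome 22, 38111495 to 38205690) lay on opposite sides of its control in the 2 lines, without passing the test in either. In CFPAC-1 it had 8.89 and 8.39 FPKM with DMSO, and 9.80 and 10.26 FPKM with IKE. The PANC-1 libraries had 2.45 and 2.42 FPKM with DMSO, and 2.07, 1.77, 2.27 and 1.68 FPKM with IKE. The groups did not overlap in either line, with IKE above DMSO in CFPAC-1 and below it in PANC-1. The log2 difference was 0.19 in CFPAC-1 (95% interval -0.06 to 0.45, adjusted p = 0.523, limma) and -0.23 in PANC-1 (95% interval -0.44 to -0.01, adjusted p = 0.269, limma). The difference of these changes was -0.42 (95% interval -0.75 to -0.09, adjusted p = 0.302, limma). Between the lines PLA2G6 was lower in PANC-1 by a log2 difference of -1.49 (adjusted p = 2.40e-07, limma).

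ALOX5 (ENSG00000012779, chromosome 10, 45374176 to 45446119), 5-lipoxygenase, was present at a low level in CFPAC-1 and listed at 0 in nearly all PANC-1 libraries. It had 3.84 and 3.98 FPKM in CFPAC-1 with DMSO and 4.06 and 4.51 FPKM with IKE, which did not overlap. In PANC-1 it was listed at 0 FPKM in both DMSO libraries and in IKE replicates 1, 2 and 4, and at 0.02 FPKM in IKE replicate 3. The log2 difference with IKE in CFPAC-1 was 0.11 (95% interval -0.10 to 0.31, adjusted p = 0.702, limma). Between the lines with DMSO the gene was called lower in PANC-1 (adjusted p = 7.55e-10, limma), and since PANC-1 is at 0 no fold is given. ALOX5 is a leukocyte enzyme in tissue. Of 9 leukocyte markers, CD14, CD68 and LYZ reached 1 FPKM, and their list summed to 77.9 to 84.3 FPKM in CFPAC-1 and 26.5 to 34.3 FPKM in PANC-1. With DMSO all 3 were called lower in PANC-1 than in CFPAC-1 (limma), as ALOX5 was. LYZ had 23.99 and 26.08 FPKM in CFPAC-1 with DMSO and 0.06 and 0.07 FPKM in PANC-1 with DMSO. CD14 had 13.53 and 14.67 FPKM against 1.25 and 0.56 FPKM, and CD68 had 43.48 and 43.44 FPKM against 23.98 and 29.51 FPKM. ALOX5AP, ITGAM and CD79A, which stayed below 1 FPKM and were not tested, lay the other way with DMSO. They had 0.06 and 0 FPKM (ALOX5AP), 0.12 and 0.10 FPKM (ITGAM) and 0.05 and 0.05 FPKM (CD79A) in CFPAC-1. In PANC-1 they had 0.66 and 0.84, 0.19 and 0.16, and 0.39 and 0.09 FPKM. CD3E and MS4A1 were at 0.04 FPKM or less in every library. PTPRC, the defining marker CD45, was at 0.03 FPKM or less in every library. A link between ALOX5 and these markers was not tested.

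POR (ENSG00000127948, chromosome 7, 75899200 to 75986855), cytochrome P450 oxidoreductase, was the most abundant of the 10 genes in PANC-1. In CFPAC-1 it had 32.46 and 35.70 FPKM with DMSO and 36.80 and 41.27 FPKM with IKE, without overlap. In PANC-1 it had 45.92 and 44.25 FPKM with DMSO and 46.69, 50.76, 44.56 and 45.31 FPKM with IKE, with overlap. The log2 difference with IKE was 0.19 in CFPAC-1 (95% interval 0.00 to 0.38, adjusted p = 0.359, limma) and 0.05 in PANC-1 (95% interval -0.11 to 0.21, adjusted p = 0.785, limma). With DMSO the level was higher in PANC-1 by a log2 difference of 0.39 (95% interval 0.21 to 0.58, adjusted p = 0.00119, limma). POR overlaps TMEM120A on the opposite strand at its end, and that gene was higher in PANC-1 too (15.6 ± 0.269 against 8.48 ± 0.24 FPKM with DMSO, SD, n = 2 each). Its part in the POR value was not tested.

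CYB5R1 (ENSG00000159348, chromosome 1, 202961869 to 202967280), a reductase of the cytochrome b5 family, came closest to a call with IKE in PANC-1. Its PANC-1 levels were 11.68 and 13.28 FPKM with DMSO, and 15.28, 16.31, 14.58 and 16.96 FPKM with IKE. Its CFPAC-1 levels were 19.50 and 22.29 FPKM with DMSO, and 20.33 and 20.74 FPKM with IKE. All 4 PANC-1 IKE libraries lay above both DMSO libraries, whereas in CFPAC-1 the IKE libraries lay between the DMSO libraries. The log2 difference was 0.32 in PANC-1 (95% interval 0.13 to 0.51, adjusted p = 0.0834, limma) and -0.02 in CFPAC-1 (95% interval -0.24 to 0.20, adjusted p = 0.967, limma). The difference of these changes was 0.34 (95% interval 0.05 to 0.63, adjusted p = 0.328, limma). With DMSO, CYB5R1 was lower in PANC-1 by a log2 difference of -0.70 (adjusted p = 4.81e-05, limma).

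PTGS2 (ENSG00000073756, chromosome 1, 186671791 to 186680427), the gene with the TATA box shown above, was expressed in CFPAC-1 and hardly detected in PANC-1. It had 10.14 and 10.94 FPKM in CFPAC-1 with DMSO, and 13.13 and 12.89 FPKM with IKE. In PANC-1 it had 0.10 and 0.12 FPKM with DMSO, and 0.09, 0.08, 0.13 and 0.14 FPKM with IKE. Both CFPAC-1 IKE libraries lay above both DMSO libraries, and the PANC-1 groups overlapped near 0. The log2 difference in CFPAC-1 was 0.28 (95% interval 0.07 to 0.49, adjusted p = 0.213, limma), which did not pass the test. In PANC-1 it was 0.00 (95% interval -0.18 to 0.18, adjusted p = 1.0, limma), on a scale that can show little at this level. The line difference was -3.38 on the log2 scale (95% interval -3.59 to -3.17, adjusted p = 3.98e-11, limma), a scale that understates it because 1 is added to both levels.

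**Figure D2:**
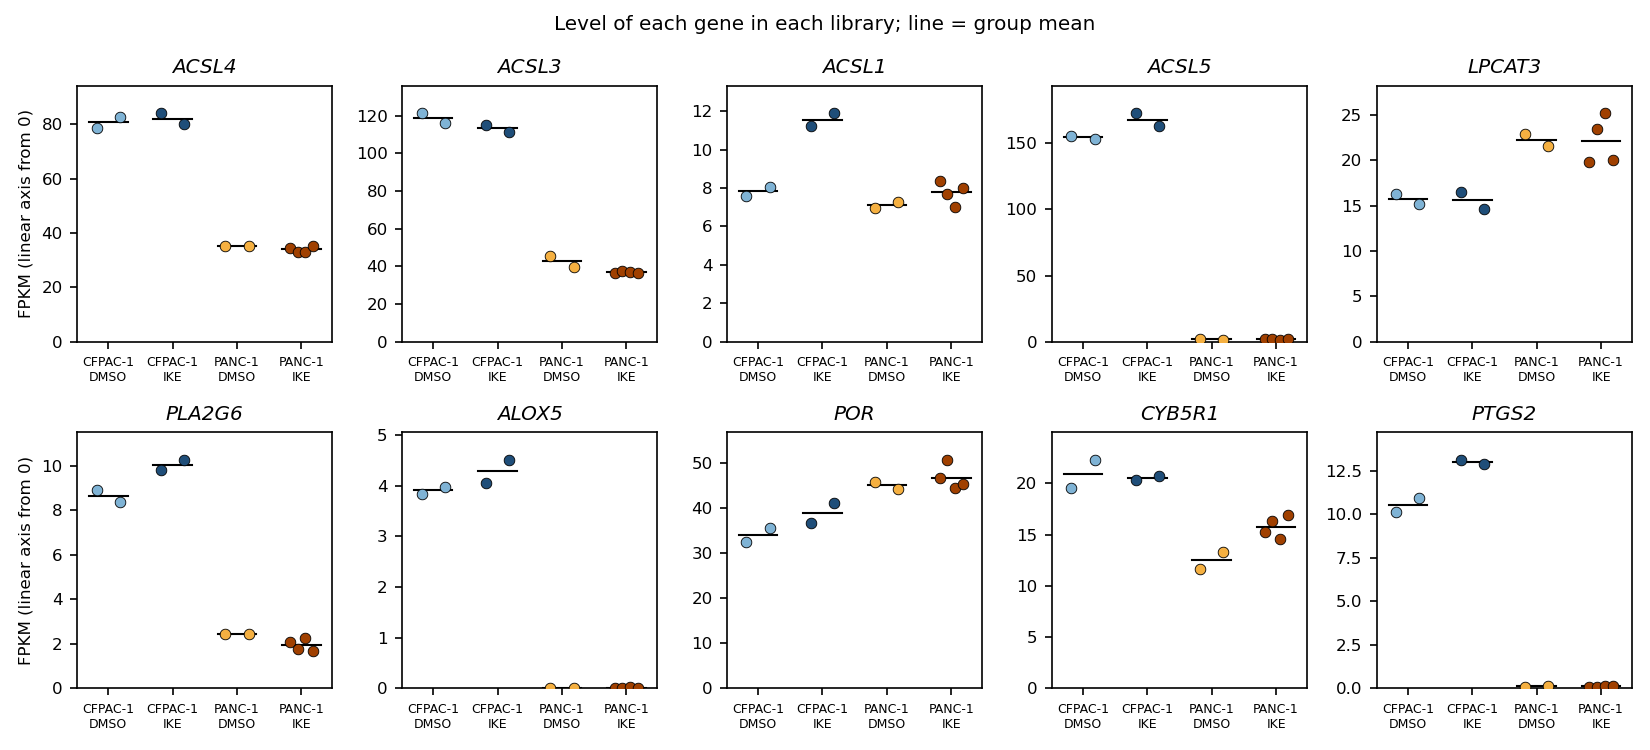
FPKM of each of the 10 genes per library (points, linear axis from 0) in CFPAC-1 and PANC-1 with DMSO or IKE, with the group mean as a line. ACSL1 has both CFPAC-1 IKE points, 11.21 and 11.88 FPKM, above all its other points, and ACSL5, ALOX5 and PTGS2 lie near 0 in PANC-1.

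Over the whole set, the 1 gene called with IKE was ACSL1, in CFPAC-1. In CFPAC-1, 1 of 10 passed the test and was higher, against 1.32% of all 13077 tested genes (0.864% higher and 0.459% lower), and at an unadjusted p under 0.05 there were 3 higher and 0 lower (6.5% and 7.1% of all genes). Their groups did not overlap for 7 genes, 6 higher and 1 lower, and with 2 libraries on each side 46.9% of all genes showed as much (23.0% higher and 23.9% lower). In PANC-1, 0 of 10 passed limma at the adjusted threshold, against 2.38% of all tested genes (1.21% higher and 1.17% lower), and at an unadjusted p under 0.05 there were 1 higher and 2 lower (8.37% and 9.25% of all genes). Non-overlap was seen for 1 gene higher and 2 lower, against 25.9% of all genes (12.3% higher and 13.6% lower). The difference of the IKE change between the lines passed limma for 0 of 10 genes, against 0.336% of all (0.107% higher and 0.229% lower), with 1 higher and 3 lower at an unadjusted p under 0.05 (5.83% and 6.52% of all genes). The median log2 difference of the 10 genes was 0.11 in CFPAC-1 and 0.00 in PANC-1, beside 0.00 and -0.01 over all tested genes.

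The 10 genes differed mostly by line. With DMSO, 7 were lower and 2 were higher in PANC-1 than in CFPAC-1, 9 of 10 in all, against 78.7% of all tested genes called, 35.2% lower and 43.4% higher. The groups did not overlap for 8 genes lower and 2 higher, against 89.3% of all genes (40.3% lower and 49.0% higher). A call or a gap by itself was thus common in this comparison. The median log2 difference was -1.31 for the 10 genes and 0.12 for all tested genes. Under median-ratio scaling the median of all genes went to -0.01, the splits of all calls to 4995 higher and 5173 lower from 5678 and 4608, and LPCAT3 (0.34, adjusted p = 0.0202, limma) and POR (0.26, adjusted p = 0.0145, limma) stayed higher in PANC-1. The order of levels changed with the line. In CFPAC-1 with DMSO it was ACSL5, ACSL3, ACSL4, POR, CYB5R1, LPCAT3, PTGS2, PLA2G6, ACSL1 and ALOX5, and in PANC-1 it was POR, ACSL3, ACSL4, LPCAT3, CYB5R1, ACSL1, PLA2G6, ACSL5, PTGS2 and ALOX5. With DMSO the ranges of the neighbours POR and ACSL3 overlapped in PANC-1, and no other neighbours in either order did, each range spanning 2 libraries. ACSL4 stood next after ACSL3 in both, above 95.9% of all genes in CFPAC-1 and 88.2% in PANC-1.

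**Figure D3:**
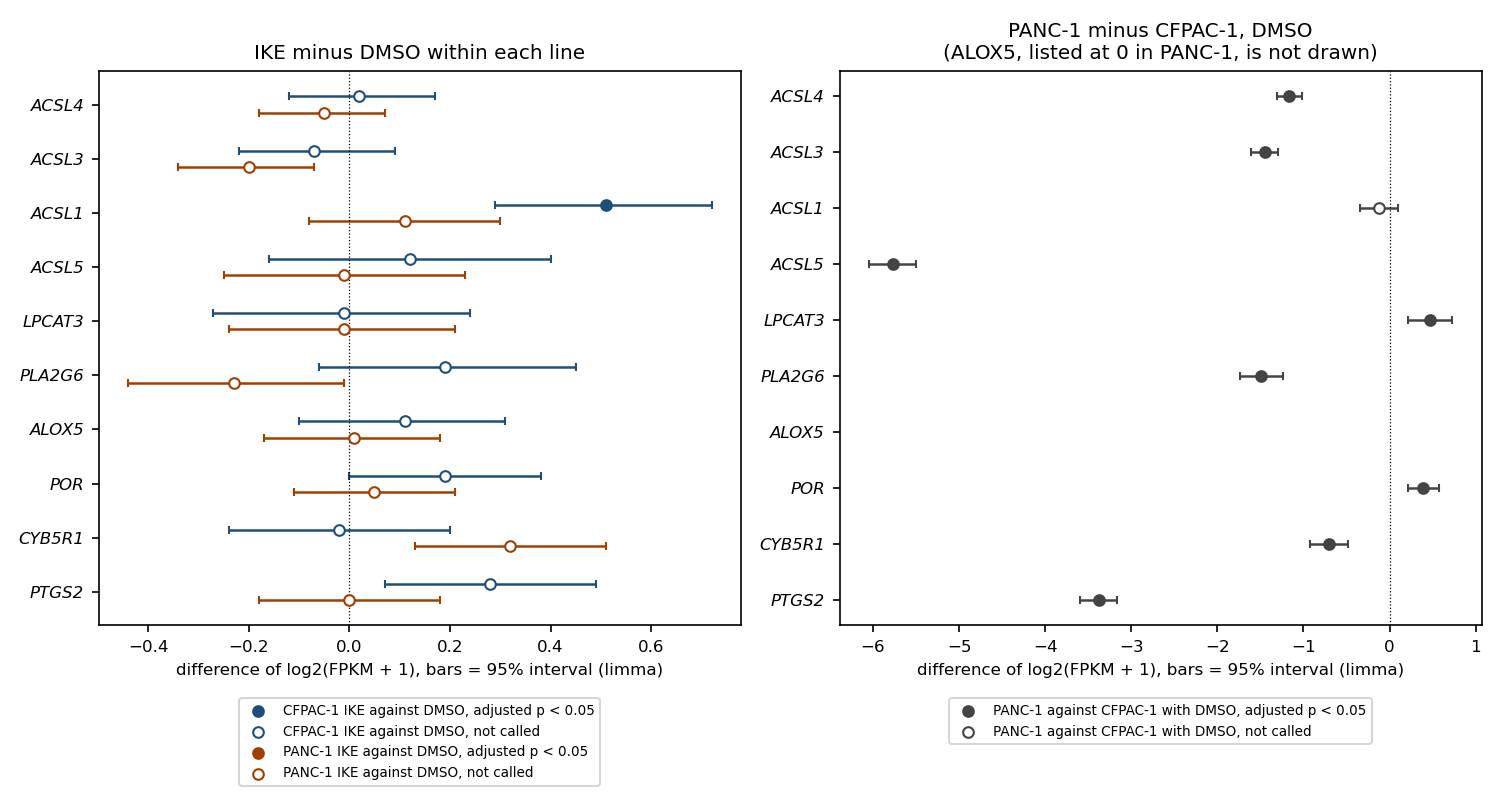
Differences of log2(FPKM + 1) with 95% limma intervals for the 10 genes, IKE minus DMSO in each line (left) and PANC-1 minus CFPAC-1 with DMSO (right, without ALOX5), filled where the adjusted p is under 0.05. With IKE only ACSL1 in CFPAC-1, at 0.51, is filled, while between the lines ACSL1 alone is open among the 9 drawn.

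Genes whose level followed that of a member most closely over the 10 libraries, by Pearson's r of log2(FPKM + 1), were CFLAR (0.9992), RPS6KA5 (0.9991) and ITGB8 (0.999) for ACSL4. For ALOX5 they were EPS8L3 (0.9999), FA2H (0.9998) and AGT (0.9997), and for PTGS2 they were SLC34A2, ARSL and FGA (0.9998 each). The 10 libraries share 2 lines, and the line sets these values: 1058 of 12223 genes reached an r of 0.99 or more with ACSL4, 1119 with ALOX5 and 1070 with PTGS2. All of the named genes were higher in CFPAC-1, for example RPS6KA5 with 29.9 against 1.81 FPKM and SLC34A2 with 47.6 against 0.0 FPKM with DMSO.

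Around the 10 genes, 129 other genes of the same routes were listed in 7 groups, and 90 of them were tested. None passed limma with IKE in either line or in the difference between the lines, against 1.32%, 2.38% and 0.336% of all tested genes. At an unadjusted p under 0.05 there were 5 higher and 2 lower in CFPAC-1 (6.5% and 7.1% of all genes), 5 higher and 12 lower in PANC-1 (8.37% and 9.25%), and 4 higher and 10 lower for the difference (5.83% and 6.52%). The gene with the smallest adjusted p in PANC-1 was CYB5B, the outer mitochondrial cytochrome b5, at a log2 difference of -0.26 (adjusted p = 0.0509, limma). LPCAT2, a lysophospholipid acyltransferase that also makes platelet-activating factor, was at -0.46 in PANC-1 (adjusted p = 0.0516, limma), from 19.50 and 16.14 FPKM with DMSO to 13.11, 11.67, 13.06 and 12.84 FPKM with IKE. In CFPAC-1 the sterol demethylase gene CYP51A1 was at 0.28 (adjusted p = 0.0623, limma) and CYP1B1 at 0.44 (adjusted p = 0.0692, limma). These 4 genes were named after their values were seen. Between the lines with DMSO, 39 of the 90 were higher and 37 lower in PANC-1, and 14 were not called, so that 84.4% were called beside 78.7% of all tested genes. The counts per list that follow are to be read against the same shares of all genes, 43.4% higher and 35.2% lower.

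**Figure D4:**
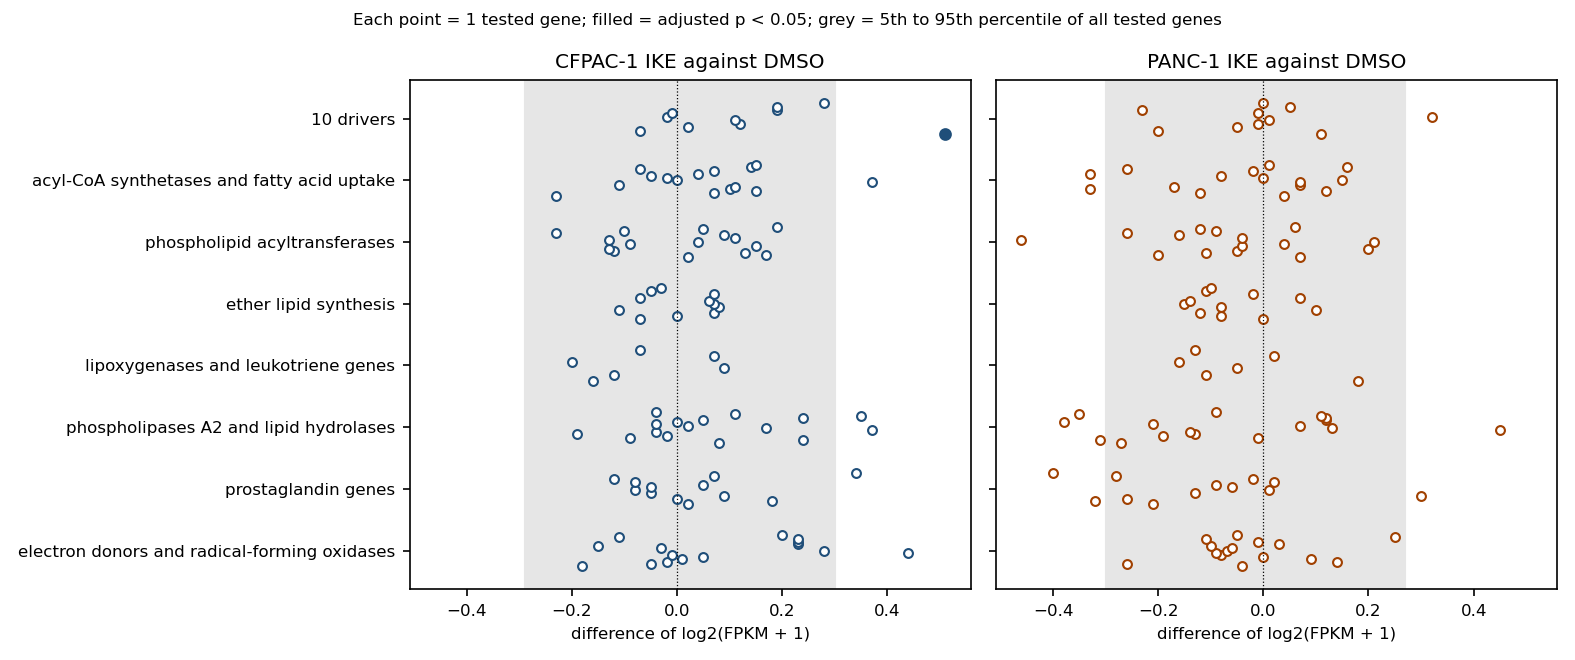
Log2 differences with IKE of the 10 genes and of the tested genes of 7 pathway lists (1 point per gene, filled where the adjusted p is under 0.05), with the 5th to 95th percentile of all tested genes in grey. The 1 filled point is ACSL1 in CFPAC-1, and most points lie within the grey band.

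Among genes of fatty acid uptake and activation, 4 of 15 tested were higher and 9 lower in PANC-1. The fatty acid transport protein gene SLC27A2 (14.0 against 0.17 FPKM, log2 difference -3.68) and the medium-chain synthetase genes ACSM3 (-3.51) and ACSF2 (-2.91) were among the lower ones, as was SLC27A1 (-2.42). Of 15 phospholipid acyltransferase and related genes, 5 were higher and 5 lower, with AGPAT4 (1.42) higher and the lysoplasmalogenase-family gene TMEM86A (-1.96), LPCAT4 (-1.69) and AGPAT3 (-1.26) lower. Of 11 ether lipid genes, whose products make plasmalogens that can carry polyunsaturated chains, 8 were higher in PANC-1 and 1 lower. CHPT1 (1.54), the fatty acyl-CoA reductases FAR2 (0.96) and FAR1 (0.69), and the plasmalogen desaturase PEDS1 (0.62) were higher. The median log2 difference of this list was 0.52, beside 0.12 for all tested genes.

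The lipoxygenase list had 13 genes, of which 6 were tested. The other lipoxygenase genes, ALOX12, ALOX12B, ALOX15, ALOX15B and ALOXE3, stayed below 1 FPKM in every library, the highest being ALOXE3 at 0.87 FPKM, so ALOX5 in CFPAC-1 was the only lipoxygenase of the list, ALOX5 included, above that level. ALOX5AP, whose product hands arachidonic acid to ALOX5, had 0 to 0.06 FPKM in CFPAC-1 and 0.56 to 0.84 FPKM in PANC-1, where ALOX5 was near 0. PEBP1, whose product can redirect 15-lipoxygenase to phospholipids, was higher in PANC-1 (log2 difference 1.06), as was COTL1 (0.98), while MGST2 (-2.14) and the leukotriene A4 hydrolase gene LTA4H (-0.87) were lower. Of 16 tested phospholipase A2 and lipid hydrolase genes, 6 were higher and 8 lower. PLAAT3 (-4.22), the monoacylglycerol lipase gene MGLL (-3.78), PLA2G4A (-1.50), which encodes the cytosolic phospholipase A2 that releases arachidonic acid, and PLA2G12A (-1.43) were lower.

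Prostaglandin genes were split between the lines as well, with 6 of 12 tested higher and 5 lower in PANC-1. PTGS1, the constitutive counterpart of PTGS2, had the opposite pattern to PTGS2: 4.55 and 5.56 FPKM in PANC-1 with DMSO against 0.09 and 0.09 FPKM in CFPAC-1 (log2 difference 2.47). The prostaglandin E synthase gene PTGES (-2.41), the thromboxane synthase gene TBXAS1 (-2.80) and HPGD (-3.41), which breaks prostaglandins down, were lower. Of 15 tested electron donors and oxidases, 8 were higher and 6 lower. CYB5R2, a relative of CYB5R1, had 27.46 and 25.84 FPKM in PANC-1 against 1.48 and 1.43 FPKM in CFPAC-1 with DMSO (log2 difference 3.49), the reverse order of CYB5R1. CYB5R4 (1.49) was also higher, and the NADPH oxidase subunit gene CYBA (-1.33) was lower. NOX1, NOX3 and NOX4 were listed at 0 in every library. All single genes named here with a line difference passed limma at the adjusted threshold of 0.05.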

How the data were processed

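Expression in 10 libraries was analysed. Per the labels' protocols, Trizol RNA was freed of rRNA, primed at random and sequenced from libraries that keep strand. The submitters' processing notes name StringTie 1.3.4, HISAT2 2.1.0, Bowtie2 2.2.8, fastp 0.18.0, DESeq2 and the build GRCh38, while the roles of these tools, the annotation and the use of strand are things not given in the sources used here. Values are FPKM computed by the authors and deposited with 2 decimals for 20289 genes. No counts were used, so counting error is unknown. Steps between the smallest values of 694 short single-exon genes (window of 0.04 to 0.065, chosen after the values were seen) put the depth roughly at 17.3 to 22.5 M fragments per library.

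The 13077 genes that reached 1 FPKM in 2 or more libraries were tested as log2(FPKM + 1) with limma 3.58.1 (R 4.3.3). One fit held all 4 groups, with a trend in the variance prior (residual degrees of freedom 6, prior 5.1). The two-sided p-values were adjusted over every tested gene (Benjamini-Hochberg, threshold 0.05). Replicates are called biological, yet no label says that cultures were separate, and the p-values reflect only the spread among these samples. The 10 genes, the pathway lists, the markers and the tests were chosen with earlier results of these data known. The text names the 10 genes always, pathway genes called with IKE, up to 4 per list by line difference (1 of these is not reported here), and the 3 genes most like ACSL4, ALOX5 and PTGS2. Alternatives were: no filter, a filter at 5 FPKM, 0.1 as pseudocount, median-ratio or quantile scaling, separate fits of the lines, PANC-1 IKE in pairs of libraries (1 and 2, 3 and 4), the replicate block, and leaving out single libraries. Promoters came from RefSeq (GRCh38.p14) and gene positions from GENCODE 29 (GRCh38).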

Additional observations from a re-analysis of the deposited data

Results flagged for a closer look

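ALOX5 in PANC-1 with IKE was listed at 0.02 FPKM in replicate 3 and at 0 FPKM in the other 3 libraries, so this library stood far from the rest of its group. With the others at 0, any value above 0 would stand apart. The value is 2 units of the last decimal in the deposited table.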

How the results depend on the processing

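Of 734 values of single genes under an alternative, 672 kept their direction and their side of the threshold. Another 36 belong to 2 results that were 0 at 3 decimals and so had no direction, PTGS2 in PANC-1 (-0.033 to 0.032 under the alternatives) and the LPCAT3 difference between the lines (-0.079 to 0.078), and 3 more became 0. ACSL1 in CFPAC-1 lost its call in 7, and ACSL1 between the lines gained one in 1 (-0.244, median-ratio scaling). The remaining 15 changed sign, none of them in a called gene and none larger than 0.115 on the log2 scale, and their causes were not tested.

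No clear pairing by replicate number was seen: the correlation of deviations of same-numbered libraries was 0 in CFPAC-1, and 0.12 and -0.03 in PANC-1. Such correlations cannot show whether the cultures were handled in pairs. With the replicate block, the count of the 10 genes called in CFPAC-1 went from 1.0 to 0.0, ACSL1 keeping a log2 difference of 0.507 (adjusted p = 0.0642, limma). All genes called went from 311.0 to 149.0 in PANC-1 and from 44.0 to 15.0 for the difference between the lines, and the counts of the 10 genes in the other comparisons stayed at 0.0 in PANC-1, 0.0 for the difference and 9.0 between the lines.

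ACSL5 in PANC-1 (-0.01) became 0.03 under quantile normalization, 0.09 with IKE replicates 1 and 2 only and 0.09 with the replicate block. With IKE replicates 3 and 4 only, LPCAT3 in PANC-1 became 0.013, and POR in PANC-1 became -0.005. Summed over ACSL3 and ACSL4 only, the change of the ACSL4 share in CFPAC-1 became 1.53 points. Over the libraries left out in turn, the 10 genes called in CFPAC-1 ranged from 0.0 to 1.0, and the change of the ACSL4 share there from -1.09 to 0.255 points. Log2 differences in CFPAC-1 ranged from -0.013 to 0.062 for ACSL4, from -0.093 to 0.064 for LPCAT3 and from -0.113 to 0.071 for CYB5R1. In PANC-1 they ranged from -0.129 to 0.115 for ACSL5 and from -0.077 to 0.034 for LPCAT3, and from 0.014 to 0.078 for POR.

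All genes called ranged over the left-out libraries from 80.0 to 256.0 in CFPAC-1 (173.0 with all libraries), from 42.0 to 504.0 in PANC-1 and from 13.0 to 62.0 for the difference. Quantile normalization gave 262.0 in CFPAC-1. In PANC-1, IKE replicates 1 and 2 only gave 172.0, replicates 3 and 4 only gave 471.0, and a fit of that line alone gave 189.0. For the difference, the pairs of IKE replicates gave 17.0 and 69.0. Leaving out a CFPAC-1 or PANC-1 DMSO library leaves 1 in its arm, which is then assumed to vary like the other groups. Groups of 2 and values rounded to 2 decimals limit what can be seen, above all for ALOX5 and PTGS2 in PANC-1.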
